A study of Mus musculus with 6 samples.

Results

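The genes described here encode the machinery that builds peroxisomes and the enzymes and membrane proteins that work in them. They are 32 of the 56747 gene rows of the deposited table, found by gene symbol: 12 peroxins, which import proteins into the organelle or shape its membrane, and 20 enzymes and membrane proteins. Each symbol matched exactly 1 row, and all 32 were among the 17557 genes with enough counts to be tested. The choice of members used no measured value, but it was made with earlier results of these data known.

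The libraries are RNA-seq profiles of whole kidney from male wild-type C57BL/6J mice, in 2 groups of 3. The saline group was dosed by mouth for 1 day with saline (its treatment label reads none), and the tacrolimus group likewise with tacrolimus at 1 mg/kg/day, an inhibitor of the phosphatase calcineurin used against graft rejection. All 6 kidneys then had 30 min of ischemia and 24 h of reperfusion, so no uninjured kidney is available for comparison. The design text gives 6 animals per group. Whether every library comes from its own animal is not stated, and p-values therefore reflect only library-to-library spread, which may be technical. The text words the ischemia differently for the groups, as partial in the saline mice but as a blocking of the arteries on both sides in the tacrolimus mice, and any difference in surgery cannot be told apart from the drug. The series title names zafirlukast, whereas the labels of these libraries name tacrolimus.

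Peroxisomes are small organelles bounded by a membrane that shorten very long and branched fatty acids, make bile acid and ether lipid precursors, and oxidise hydroxy acids and D-amino acids, releasing hydrogen peroxide that catalase removes. Their matrix proteins are made in the cytosol and carried in by receptors that recognise a short targeting signal, dock at the membrane and are then recycled after ubiquitination. In the kidney the organelle is most abundant in the proximal tubule, and in rodents the fatty acid receptor PPAR-alpha raises transcription of many of its beta-oxidation genes.

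Before the members are described, the libraries need a word. They held 38443534 to 44476844 counts each, and levels below are counts per 1e6 counts of library size, scaled with TMM factors (CPM). The first principal component held 54.1% of the variance, and along it saline replicate 1, at -27.3, lay beside the tacrolimus libraries, at -45.1 to -37.5, and away from saline replicates 2 and 3, at 57.4 and 91.3. Proximal tubule markers were clearly present: Lrp2, the endocytic receptor megalin, had 1945, 2088 and 1920 CPM with tacrolimus and 1849, 855 and 318 CPM in saline replicates 1, 2 and 3. The injury marker Havcr1 had 268, 1598 and 1081 CPM with saline and 14.95, 57.7 and 118 CPM with tacrolimus. The members are therefore described with all 6 libraries and, at least where the edgeR call differs, also without saline replicate 1.

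With all 6 libraries, none of the 32 genes passed an adjusted p of 0.05 in edgeR's quasi-likelihood test, which called 2 genes in all (0.0114% of those tested, both lower with tacrolimus). At an unadjusted p under 0.05, 4 members were higher and 2 lower with tacrolimus, where 4.94% of all genes were higher and 7.72% lower. DESeq2 on the same counts called 1 member, Pex11a, among 344 genes (1.96% of those tested, 0.632% higher and 1.33% lower). In 9 of the 32 (28.1%) the 2 groups did not overlap in CPM, against 21.8% of all genes; 6 of these were higher and 3 lower with tacrolimus, where 10.7% and 11.0% of all genes were.

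Without saline replicate 1, edgeR called 8 of the 32 (25.0%), against 14.0% of all genes tested. Of these, 6 rose with tacrolimus (Hao2, Dao, Scp2, Acox3, Amacr and Agps) and 2 fell (Pex11a and Decr2), while 7.85% of all genes rose and 6.16% fell. The 8 calls rest on 2 saline libraries, and leaving out any other library gave none of the members a call. Because saline replicate 1 was set aside after its values were seen, the adjusted p-values without it, here and below, are descriptive only.

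The 2 classes are summarised apart. The 12 peroxins had a median log2 fold change (tacrolimus against saline) of 0.058 and a median size of 0.19, with 7 above 0 and 5 below. The 20 enzymes and membrane proteins had a median of 0.19 and a median size of 0.49, with 12 above 0 and 8 below. Over all genes tested the median was -0.0069 and the median size 0.28. The groups did not overlap in 2 of the 12 peroxins (16.7%) and 7 of the 20 enzymes and membrane proteins (35.0%), against 21.8% of all genes tested. No test of the difference between the classes was run.

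**Figure D1:**
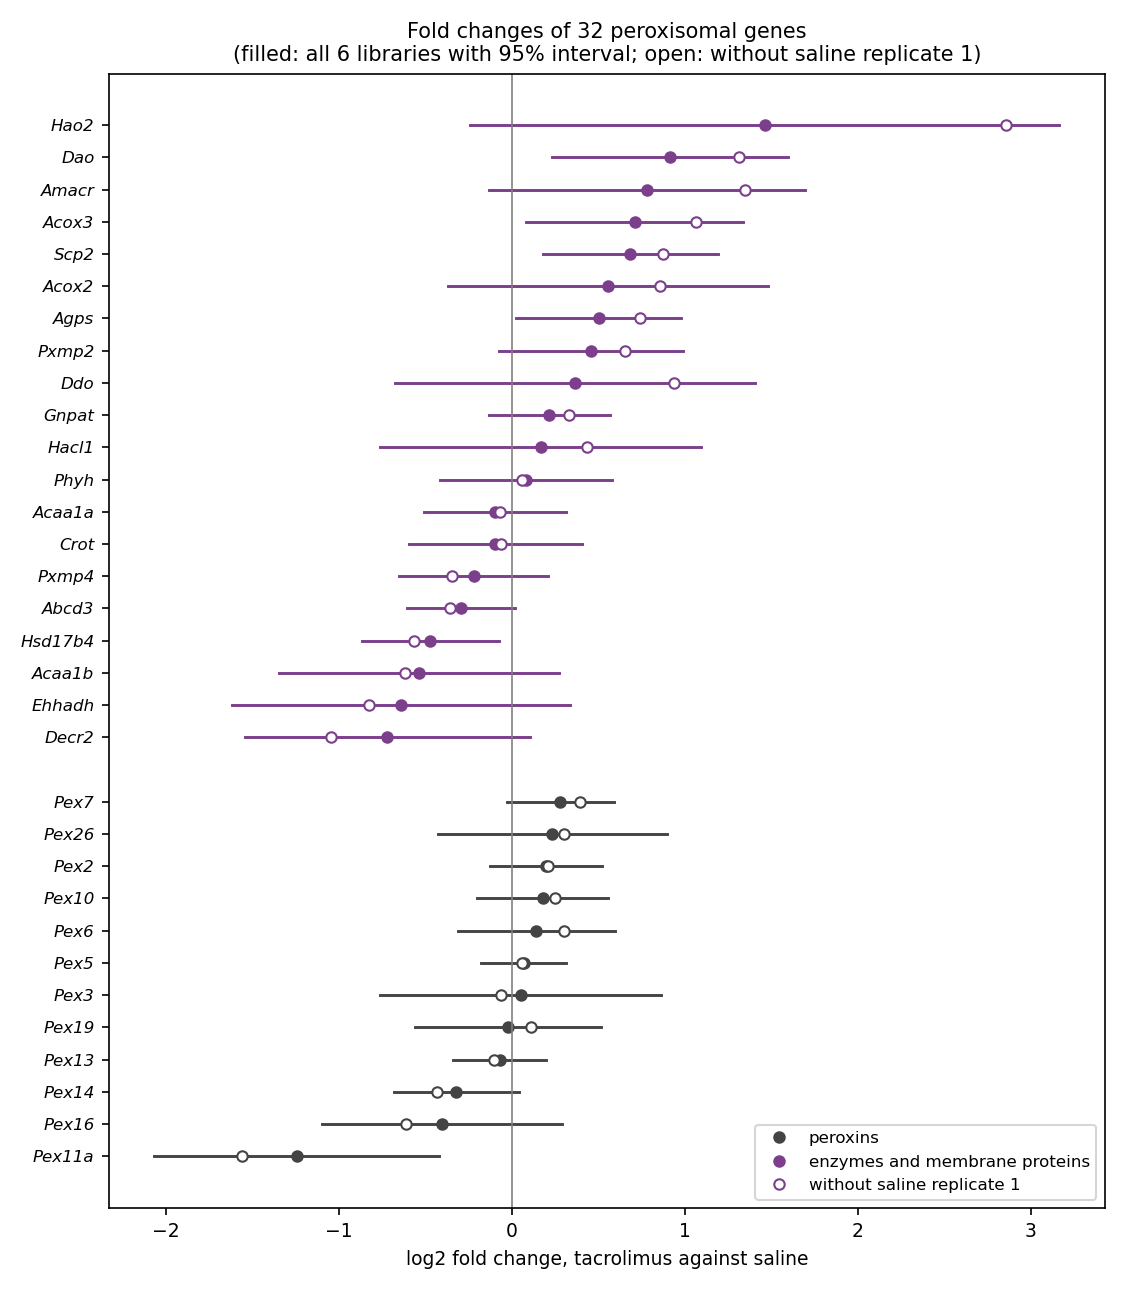
The log2 fold change of each of the 32 genes (x axis, tacrolimus against saline), grouped into peroxins and enzymes with membrane proteins. Filled points with bars give the estimate from all 6 libraries and its 95% interval, and open points the estimate without saline replicate 1. Most peroxins lie near 0 with Pex11a far to the left at -1.25, whereas the enzymes spread from -0.72 for Decr2 to 1.46 for Hao2.

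Of the import receptors and their docking proteins, Pex5 and Pex13 were close to level, while Pex7 and Pex14 had estimates of opposite sign. Pex5, the receptor for the common targeting signal at the end of matrix proteins, had 68.8, 66.4 and 73.8 CPM in saline replicates 1, 2 and 3 and 75.6, 73.7 and 69.5 CPM in the tacrolimus replicates. The groups overlapped, and the log2 fold change of 0.067 had a 95% interval of -0.18 to 0.31 (adjusted p = 0.755 in edgeR). Pex7, the receptor for the other, N-terminal signal, had 61.1, 46.8 and 51.4 CPM with saline and 64.6, 65.7 and 62.9 CPM with tacrolimus. All 3 tacrolimus libraries were above the saline libraries, by little over saline replicate 1, and the log2 fold change was 0.28 ± 0.13 (SE; edgeR adjusted p = 0.404). Without saline replicate 1 the estimate for Pex7 was 0.39, with an edgeR adjusted p of 0.0542.

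Pex14, the docking protein at which both receptors arrive, went the other way, with 52.4, 62.6 and 72.9 CPM with saline and 55.0, 46.8 and 48.5 CPM with tacrolimus. Here tacrolimus replicate 1 overlapped saline replicate 1, and the log2 fold change was -0.32 ± 0.15 (SE; edgeR adjusted p = 0.406). Its partner in docking, Pex13, had 45.6, 45.7 and 53.3 CPM with saline and 45.2, 44.9 and 47.4 CPM with tacrolimus, which overlapped, with a log2 fold change of -0.072. Summed over Pex5, Pex7, Pex13 and Pex14, the level per length was 42.2 ± 2.92 FPKM with saline and 41.8 ± 1.12 with tacrolimus (SD, n = 3 each).

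The 4 genes that ubiquitinate the receptor and pull it back to the cytosol all had estimates slightly above 0, from 0.14 to 0.23 on the log2 scale, and none was called. Pex2, a RING-type ubiquitin ligase of the membrane, had 44.4, 36.9 and 49.9 CPM with saline and 50.4, 50.1 and 49.6 CPM with tacrolimus. The tacrolimus libraries nearly coincided and lay within or next to the top of the saline range, with a log2 fold change of 0.19 ± 0.14 (SE; edgeR adjusted p = 0.492). Of the rest, Pex10, another ligase of the same complex, ranged from 8.98 to 12.9 CPM over the 6 libraries, Pex6, an ATPase that extracts the receptor, from 32.8 to 52.9 CPM, and Pex26, which anchors Pex6 to the membrane, from 5.23 to 10.6 CPM. Pex26 was the member with the lowest level per length, at a mean of 1.45 FPKM.

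The genes that insert membrane proteins showed no common direction. Pex19, the cytosolic chaperone of these proteins, had 119, 105 and 79.8 CPM with saline and 114, 112 and 73.0 CPM with tacrolimus, and the groups overlapped almost fully (log2 fold change -0.026, 95% interval -0.56 to 0.51). Pex16, a membrane receptor in the same path, had 20.5, 25.2 and 43.6 CPM with saline and 25.8, 19.3 and 22.2 CPM with tacrolimus. Saline replicate 3 alone stood high, and the log2 fold change was -0.41 ± 0.29 (SE; edgeR adjusted p = 0.50). Pex3, the docking site of Pex19 in the membrane, ranged from 18.3 to 39.5 CPM with saline and from 18.9 to 34.2 CPM with tacrolimus.

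Pex11a was the exception among the peroxins. It encodes a membrane protein that elongates and divides peroxisomes, it is a known target of PPAR-alpha in rodent liver, and its level per length was 53.5 ± 23.7 FPKM with saline and 22.7 ± 1.80 with tacrolimus (SD, n = 3 each). That was the highest mean of the 12 with saline, whereas with tacrolimus Pex19 was higher, at 26.2 FPKM. Its CPM were 86.6, 234 and 192 in saline replicates 1, 2 and 3 and 70.3, 78.5 and 67.4 in the tacrolimus replicates. The groups did not overlap, but saline replicate 1 lay just above the tacrolimus libraries and far below the other saline libraries. The log2 fold change was -1.25 ± 0.34 (SE; 95% interval -2.07 to -0.42), with an adjusted p of 0.392 in edgeR and 0.0332 in DESeq2. Without saline replicate 1 it fell by 1.56 on the log2 scale (SE 0.13, edgeR adjusted p = 0.00504). In GRCm39, the build of the deposited table, the gene is on the minus strand at chr7:79385705-79392879.

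**Figure D2:**
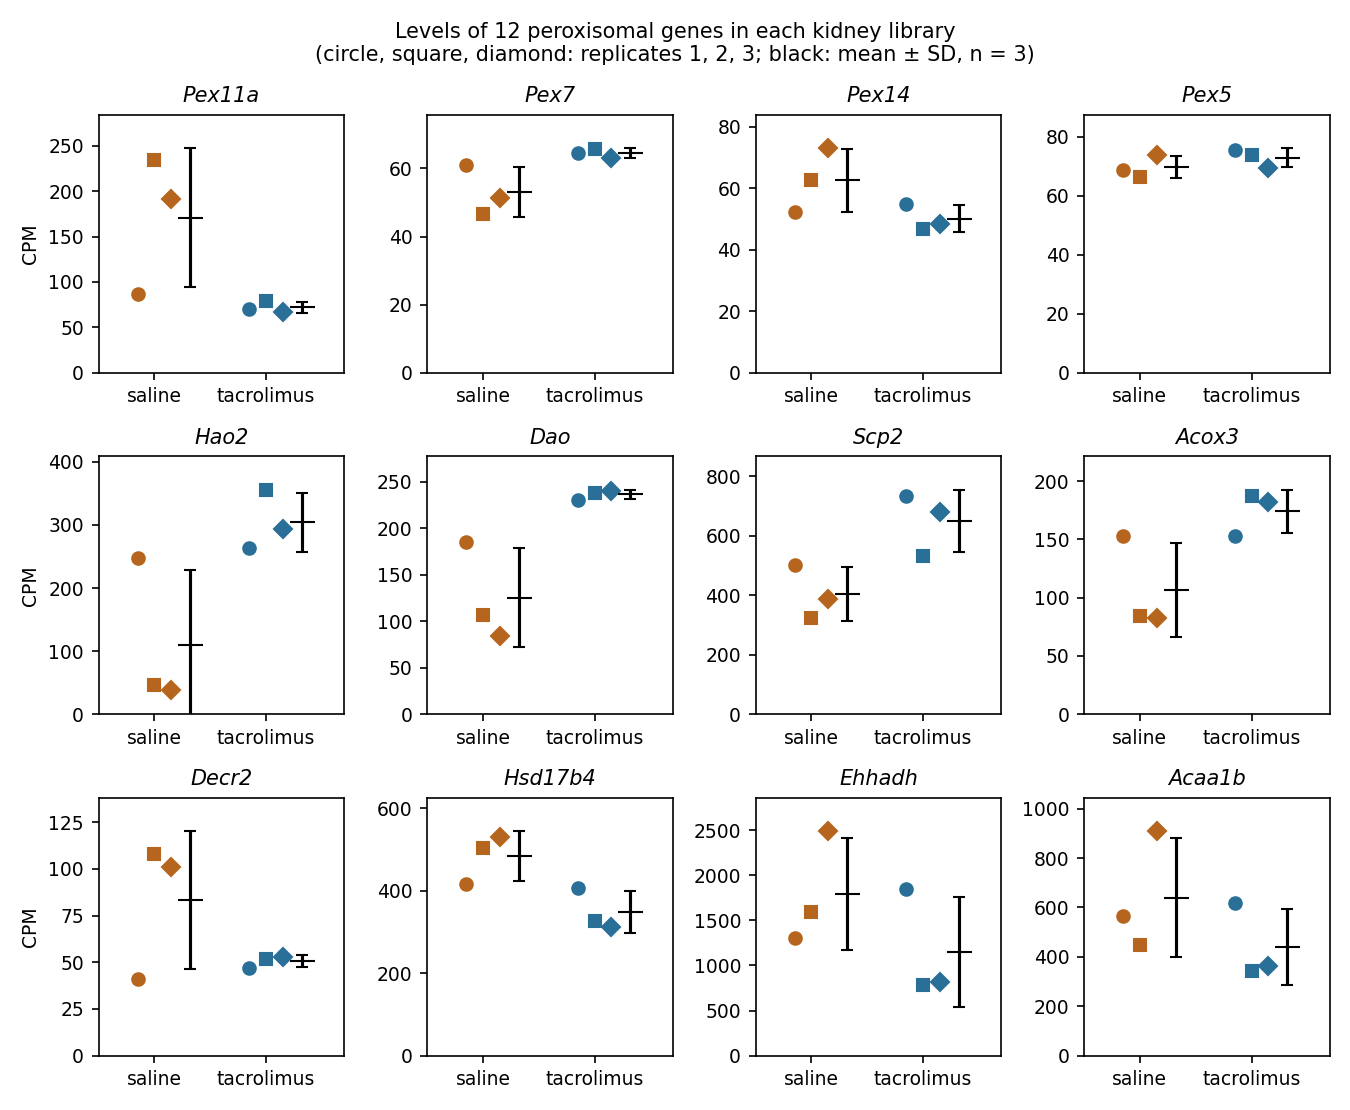
CPM of 12 members in each library, with saline on the left and tacrolimus on the right of each panel; circles, squares and diamonds are replicates 1, 2 and 3, and black bars give the mean ± SD (n = 3; the lower bar of Hao2 with saline is cut at 0). The saline circle sits beside the tacrolimus points for Pex11a, Hao2, Acox3 and Decr2, while for Ehhadh and Acaa1b it is the tacrolimus circle that sits among the saline points.

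The enzymes of straight-chain beta-oxidation all had estimates below 0 with tacrolimus, 5 of 5 with a median of -0.54 on the log2 scale, but none passed the test with all 6 libraries. Ehhadh, the bifunctional enzyme that hydrates and then dehydrogenates the fatty acyl chain, was the most abundant member, with 26.5% of the summed FPKM of the 20 enzymes and membrane proteins. It had 1301, 1588 and 2487 CPM in saline replicates 1, 2 and 3 and 1848, 779 and 814 CPM in the tacrolimus replicates. Tacrolimus replicate 1 lay within the saline range and the other tacrolimus libraries below it, and the log2 fold change was -0.64 ± 0.41 (SE; edgeR adjusted p = 0.458). Acaa1b, a thiolase that cleaves off the acetyl unit, had 564, 448 and 908 CPM with saline and 619, 342 and 361 CPM with tacrolimus. The same tacrolimus library stood high, and the log2 fold change was -0.54 ± 0.34 (SE; edgeR adjusted p = 0.456). Its close relative Acaa1a had 104, 83.0 and 114 CPM with saline and 111, 84.9 and 85.7 CPM with tacrolimus. These overlapped, with a log2 fold change of -0.097, and reads of such near-identical genes may be split between them, so the counts of both are uncertain.

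Decr2, the reductase that prepares unsaturated chains for beta-oxidation, had 40.8, 108 and 101 CPM with saline and 46.8, 51.8 and 53.1 CPM with tacrolimus. Saline replicate 1 was the lowest of the 6 libraries and the other saline libraries the highest. The log2 fold change was -0.72 ± 0.35 with all libraries (SE; edgeR adjusted p = 0.409), and without saline replicate 1 Decr2 fell by 1.05 on the log2 scale (SE 0.10, adjusted p = 0.00628). Crot, which passes the shortened chains on to carnitine for export, had 446, 356 and 481 CPM with saline and 510, 347 and 342 CPM with tacrolimus, again with tacrolimus replicate 1 high and with overlapping groups (log2 fold change -0.10 ± 0.21, SE).

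Enzymes that handle branched chains and bile acid precursors had estimates above 0 in 4 of 5, with a median of 0.68. Scp2, whose locus encodes the thiolase for branched chains and a sterol carrier protein, had 502, 322 and 389 CPM with saline and 735, 533 and 681 CPM with tacrolimus. Every tacrolimus library lay above every saline library, and the log2 fold change was 0.68 ± 0.21 (SE; 95% interval 0.18 to 1.19; edgeR adjusted p = 0.392). Scp2 rose by 0.87 without saline replicate 1 (adjusted p = 0.0313). Acox3, an oxidase of branched acyl chains, had 153, 84.3 and 82.3 CPM with saline and 153, 187 and 182 CPM with tacrolimus. Saline replicate 1 lay just under tacrolimus replicate 1 and the other saline libraries far below, so the log2 fold change was 0.71 ± 0.26 with all libraries (SE; edgeR adjusted p = 0.392) and 1.07 without saline replicate 1 (adjusted p = 0.00793).

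Amacr, the racemase that turns branched chains into the form the oxidases accept, had 110, 53.9 and 36.7 CPM with saline and 107, 125 and 112 CPM with tacrolimus. Saline replicate 1 lay inside the tacrolimus range, and the log2 fold change of 0.78 ± 0.38 (SE; edgeR adjusted p = 0.41) became 1.35 ± 0.19 without it (adjusted p = 0.0122). Acox2, the oxidase of bile acid precursors, had 155, 130 and 52.1 CPM with saline and 203, 143 and 150 CPM with tacrolimus, which overlapped (log2 fold change 0.55 ± 0.39, SE).

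Hsd17b4, the other bifunctional enzyme of the organelle and the one used for branched chains and bile acids, was the member of this group with a negative estimate. It had 415, 504 and 531 CPM with saline and 407, 326 and 312 CPM with tacrolimus. All tacrolimus libraries were below all saline libraries, though tacrolimus replicate 1 only just, and the log2 fold change was -0.47 ± 0.17 (SE; 95% interval -0.87 to -0.08; edgeR adjusted p = 0.392). Without saline replicate 1 the estimate was -0.57, with an adjusted p of 0.0546.

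The oxidases of hydroxy acids and D-amino acids gave the highest estimates, above 0 in 3 of 3 with a median of 0.91. Hao2, which oxidises longer 2-hydroxy acids and in rodents is chiefly a kidney enzyme, had 247, 46.1 and 38.1 CPM in saline replicates 1, 2 and 3 and 264, 356 and 293 CPM in the tacrolimus replicates. Saline replicate 1 came close to the tacrolimus libraries, while the other saline libraries were several-fold lower. The log2 fold change was 1.46 ± 0.71 (SE; 95% interval -0.24 to 3.17; edgeR adjusted p = 0.41) with all libraries and 2.85 ± 0.19 without saline replicate 1 (adjusted p = 0.00357). Hao2 lies on the minus strand at chr3:98781837-98800555 in GRCm39.

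Dao, the D-amino acid oxidase, had 185, 107 and 83.9 CPM with saline and 231, 238 and 240 CPM with tacrolimus. The tacrolimus libraries nearly coincided and lay above all saline libraries, with a log2 fold change of 0.91 ± 0.29 (SE; 95% interval 0.23 to 1.60; edgeR adjusted p = 0.392). Dao rose by 1.31 without saline replicate 1 (adjusted p = 0.00649). Ddo, which acts on D-aspartate, had 55.9, 30.7 and 14.98 CPM with saline and 38.3, 51.2 and 41.1 CPM with tacrolimus, so that saline replicate 1 was the highest of the 6 (log2 fold change 0.36 ± 0.44, SE).

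Agps and Gnpat carry out the early peroxisomal steps of ether lipid synthesis. Agps had 170, 121 and 101 CPM with saline and 185, 187 and 182 CPM with tacrolimus. The groups did not overlap, and the log2 fold change was 0.50 ± 0.20 (SE; edgeR adjusted p = 0.393), or 0.74 without saline replicate 1 (adjusted p = 0.0168). Gnpat had 80.5, 72.4 and 57.0 CPM with saline and 79.5, 82.8 and 81.5 CPM with tacrolimus, with saline replicate 1 level with the tacrolimus libraries (log2 fold change 0.22 ± 0.15, SE).

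In alpha-oxidation, which shortens phytanic acid ahead of beta-oxidation, Phyh, the hydroxylase, had 412, 332 and 538 CPM with saline and 520, 418 and 419 CPM with tacrolimus. The groups overlapped, and the log2 fold change was 0.08 ± 0.21 (SE; edgeR adjusted p = 0.853). Hacl1, the lyase that follows, ranged from 35.9 to 99.0 CPM with saline and from 61.5 to 105 CPM with tacrolimus.

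Of the membrane proteins, Abcd3, the transporter that brings branched acyl chains and bile acid precursors into the organelle, had 513, 568 and 616 CPM with saline and 474, 476 and 433 CPM with tacrolimus. All tacrolimus libraries were lower than all saline libraries, with a log2 fold change of -0.30 ± 0.13 (SE; edgeR adjusted p = 0.401). Pxmp4, a membrane protein of the organelle, had 151, 202 and 203 CPM with saline and 190, 143 and 143 CPM with tacrolimus, which overlapped. Pxmp2, a channel for small solutes, ranged from 16.2 to 28.1 CPM with saline and from 27.0 to 35.8 CPM with tacrolimus (log2 fold change 0.45 ± 0.22, SE).

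On the FPKM scale, which allows levels to be compared between genes, the enzymes held most of the signal. Ehhadh was first in both groups, at means of 598 FPKM with saline and 385.5 with tacrolimus. With saline it was followed by Acaa1b at 325, Phyh at 225, Hsd17b4 at 141 and Scp2 at 116 FPKM. With tacrolimus the order was Phyh at 239.5, Acaa1b at 225, Scp2 at 187 and Hao2 at 149 FPKM, ahead of Hsd17b4 at 102.5. Averaged over the 6 libraries, Ehhadh, Acaa1b, Phyh, Scp2 and Hsd17b4 held 68.6% of the summed FPKM of the 20 enzymes and membrane proteins. That sum was 1913 ± 327 FPKM with saline and 1798 ± 370 with tacrolimus, while the sum over the 12 peroxins was 180 ± 22.3 and 149 ± 9.08 FPKM (SD, n = 3 each). Pex11a made up 53.5 and 22.7 FPKM of the latter. In bulk tissue, fewer cells of a type and less RNA per cell cannot be told apart in any of these values.

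**Figure D3:**
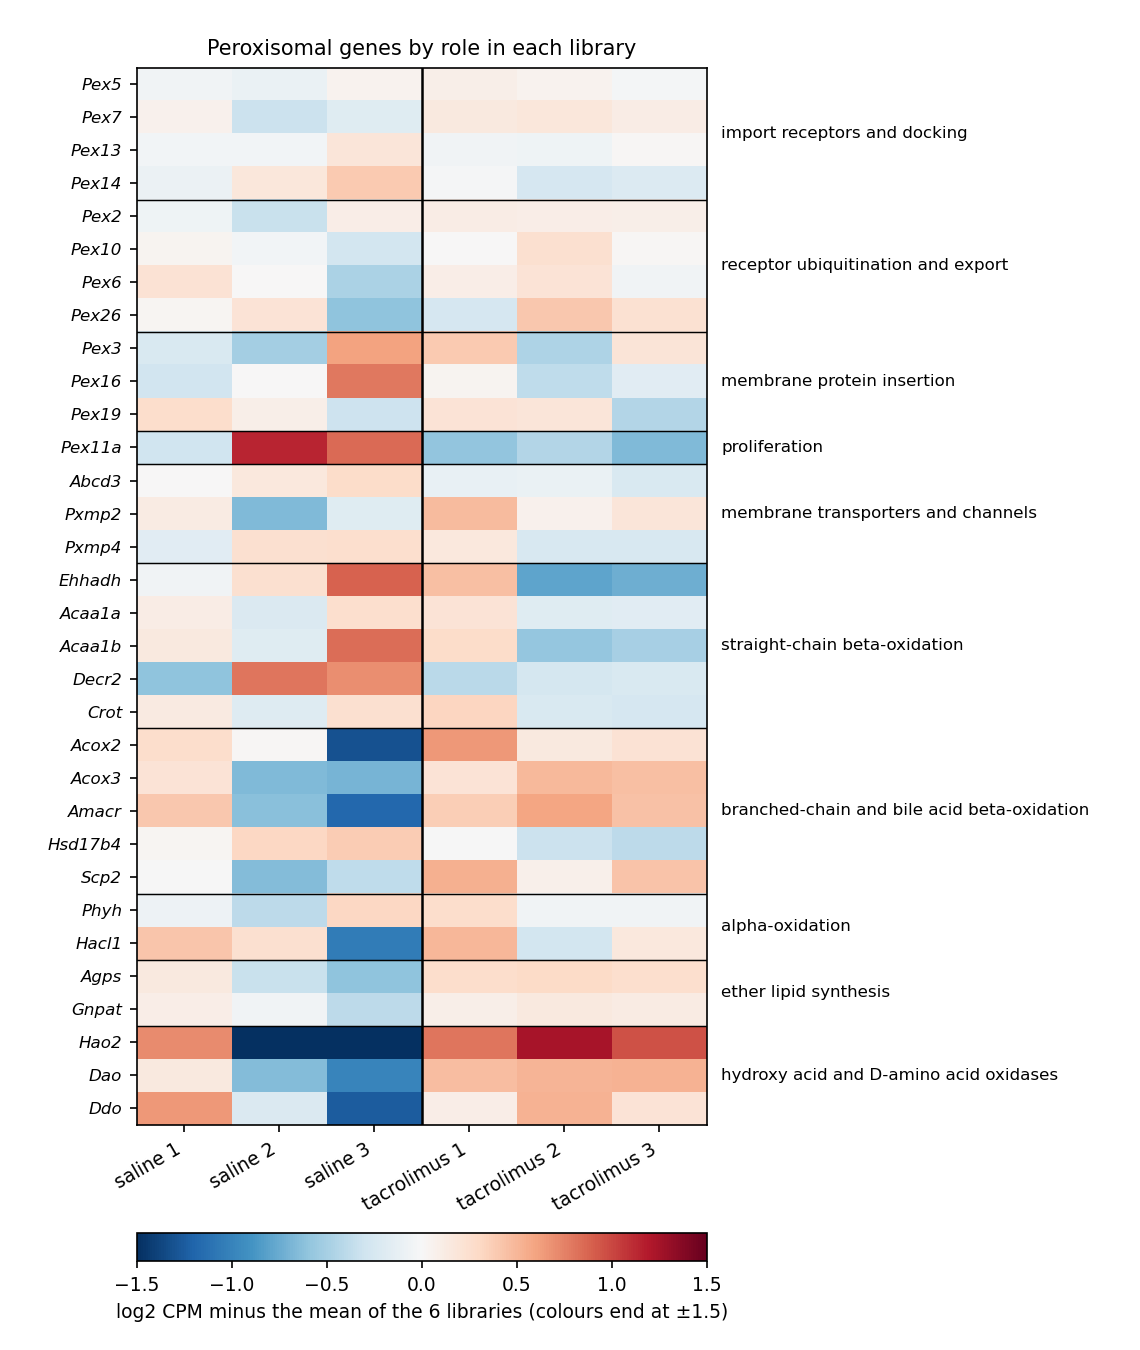
Each row is a member, grouped by role, and each column a library; colour gives log2 CPM minus the mean of the 6 libraries, and colours end at ±1.5. Saline replicate 1 has the colours of the tacrolimus libraries for Pex11a, Decr2, Amacr and Hao2, and the import receptors and docking genes are pale throughout.

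The spread within the groups was unequal. The SD of log2 CPM was larger with saline than with tacrolimus in 28 of the 32 members (87.5%), against 76.0% of all genes tested, with medians over the members of 0.37 and 0.19. Library medians showed where that spread lay. For the oxidases the median deviation from the 6-library mean was 0.64 in saline replicate 1, -0.65 in replicate 2 and -1.25 in replicate 3, and 0.46 to 0.52 with tacrolimus. For the straight-chain enzymes it was 0.11, -0.18 and 0.70 with saline, whereas with tacrolimus replicate 1 stood at 0.28 and replicates 2 and 3 at -0.26. Tacrolimus replicate 1 was the highest of its group in 17 of the 32 members, and in 6178 of the 17557 genes tested.

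The promoters of 4 members are shown because these genes span the pattern: Pex11a and Hao2 have the largest estimates in either direction, and Ehhadh and Acaa1b have the highest FPKM averaged over the 6 libraries. Each line holds the 100 bases before the start of transcription, 5′ to 3′ on the gene's strand, from RefSeq on GRCm38.p6, a different build from that of the gene coordinates above. Capitals mark the GC box GGGCGG, the box named CCAAT and the nuclear receptor element AGGTCA on either strand.
Pex11a, chr7:79743132-79743231, minus strand: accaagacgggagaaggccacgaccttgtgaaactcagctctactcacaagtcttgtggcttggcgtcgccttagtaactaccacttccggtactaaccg
Hao2, chr3:98893231-98893330, minus strand: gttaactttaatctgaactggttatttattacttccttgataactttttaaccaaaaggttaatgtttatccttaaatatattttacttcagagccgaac
Ehhadh, chr16:21787835-21787934, minus strand: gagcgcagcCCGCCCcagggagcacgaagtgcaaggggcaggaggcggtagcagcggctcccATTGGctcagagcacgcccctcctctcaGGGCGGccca
Acaa1b, chr9:119157094-119157193, minus strand: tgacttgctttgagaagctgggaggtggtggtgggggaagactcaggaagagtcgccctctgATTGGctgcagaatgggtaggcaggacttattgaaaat

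Over the full window of 300 bases (250 before and 50 after the start), Hao2 had a GC content of 32.3%, Acaa1b 43.7%, Pex11a 57.3% and Ehhadh 60.7%, where the median of all RefSeq promoter windows was 52.7%. Of the members, 27 of 32 had a window. GGGCGG was found on either strand in 19 of these 27, and in 38.2% of all gene symbols with a window. CCAAT was found in 13 (41.1% of symbols). AGGTCA, the element of nuclear receptors such as PPAR-alpha, was found in 4 (Scp2, Phyh, Dao and Ddo; 18.1% of symbols), and the spaced repeat AGGTCANAGGTCA, which contains AGGTCA, in 0 (0.0481% of symbols). A match, or the lack of one, is a description of the letters of these windows only. The repeat was searched as exact letters and was rare in all windows, so finding it in 0 members does not set them apart.

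Other peroxisomal genes were read for comparison, from lists chosen with earlier results known. Of 19 further genes of biogenesis and division, 15 had estimates above 0 (median 0.16), and none was called with all 6 libraries. The smallest p-values there belonged to Pex5l, Acbd5 and Tysnd1. Pex5l, a relative of the import receptor, was near the limit of detection, at 0.92, 0.051 and 0.48 CPM with saline and 2.49, 1.97 and 1.42 CPM with tacrolimus. Acbd5, which tethers peroxisomes to the endoplasmic reticulum, had a log2 fold change of 0.46, and Tysnd1, the protease that trims imported enzymes, of 0.37. Tysnd1 rose by 0.57 without saline replicate 1 (edgeR adjusted p = 0.0335), the only call of the 19 (5.26%, against 14.0% of all genes tested).

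Of 32 further peroxisomal enzymes, 29 were tested, with 14 estimates above and 15 below 0 (median -0.019) and no call with all 6 libraries in edgeR. Without saline replicate 1, 30 were tested and 10 called (33.3%), 6 higher and 4 lower, against 14.0% of all genes tested. The gene added in that fit, Uox, is among the 4 lower. It had counts of 21 and 37 in saline replicates 2 and 3 and of 0, 0 and 2 with tacrolimus. Because Uox passed the count filter only through those saline libraries, its call carries no weight. Pipox, which oxidises pipecolic acid and sarcosine, had 182, 111 and 120 CPM with saline and 271, 218 and 235 CPM with tacrolimus, without overlap (log2 fold change 0.81; adjusted p = 0.392 in edgeR and 0.0442 in DESeq2), and rose by 1.06 without saline replicate 1 (edgeR adjusted p = 0.00901). Acsl4, which activates long-chain polyunsaturated fatty acids, had 118, 506 and 306 CPM with saline and 106, 90.8 and 99.3 CPM with tacrolimus (log2 fold change -1.65; adjusted p = 0.392 in edgeR and 0.0252 in DESeq2), and fell by 2.04 without saline replicate 1 (edgeR adjusted p = 0.00686). Xdh, xanthine dehydrogenase, was also lower in every tacrolimus library (log2 fold change -1.06; edgeR adjusted p = 0.392), and fell by 1.36 without saline replicate 1 (adjusted p = 0.0046).

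Cat, catalase, which removes the hydrogen peroxide that the oxidases release, is not a member but belongs to the further peroxisomal enzymes above. It had 1807, 1475 and 1069 CPM with saline and 1772, 1459 and 1315 CPM with tacrolimus. The groups overlapped, with a log2 fold change of 0.06 (edgeR adjusted p = 0.899), and saline replicates 1 and 3 lay far apart.

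PPAR-alpha itself and its targets elsewhere in the cell were read in the same way. Ppara had 39.3, 73.2 and 56.2 CPM with saline and 43.1, 45.1 and 52.2 CPM with tacrolimus, which overlapped (log2 fold change -0.27; edgeR adjusted p = 0.568). Ppargc1a, the coactivator of mitochondrial genes, had 111, 50.1 and 52.5 CPM with saline and 142, 111 and 122 CPM with tacrolimus; it was at 0.81 with all libraries (adjusted p = 0.393) and rose by 1.29 without saline replicate 1 (adjusted p = 0.00659). Rxra and Ppard, a receptor partner and a relative, had log2 fold changes of 0.24 and 0.45, without overlap of the groups.

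Of 20 PPAR-alpha targets outside the peroxisome, 17 had estimates below 0 (median -0.35), with no call in edgeR with all libraries. The groups did not overlap in 1 of the 20 (5.0%), against 21.8% of all genes tested. Tacrolimus replicate 1 was the highest of its group in 18 of the 20, and in 6178 of the 17557 genes tested. Plin2, the coat protein of lipid droplets, had 121, 1201 and 2704 CPM with saline and 101, 85.4 and 74.7 CPM with tacrolimus, without overlap (log2 fold change -3.95; adjusted p = 0.392 in edgeR, 0.0147 in DESeq2). Pdk4, the kinase that inhibits pyruvate dehydrogenase, had a log2 fold change of -3.04 and Angptl4, an inhibitor of lipoprotein lipase, of -1.68, and for both saline replicate 1 lay within the tacrolimus range. Without that library 5 of the 20 (25.0%) were called in edgeR, 1 higher and 4 lower. Of all genes tested, 7.85% were called higher and 6.16% lower in that fit. Among the 4 lower ones, Plin2 fell by 4.49 (adjusted p = 0.00498), Pdk4 by 3.57 (adjusted p = 0.0115) and Angptl4 by 2.13 (adjusted p = 0.00498).

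**Figure D4:**
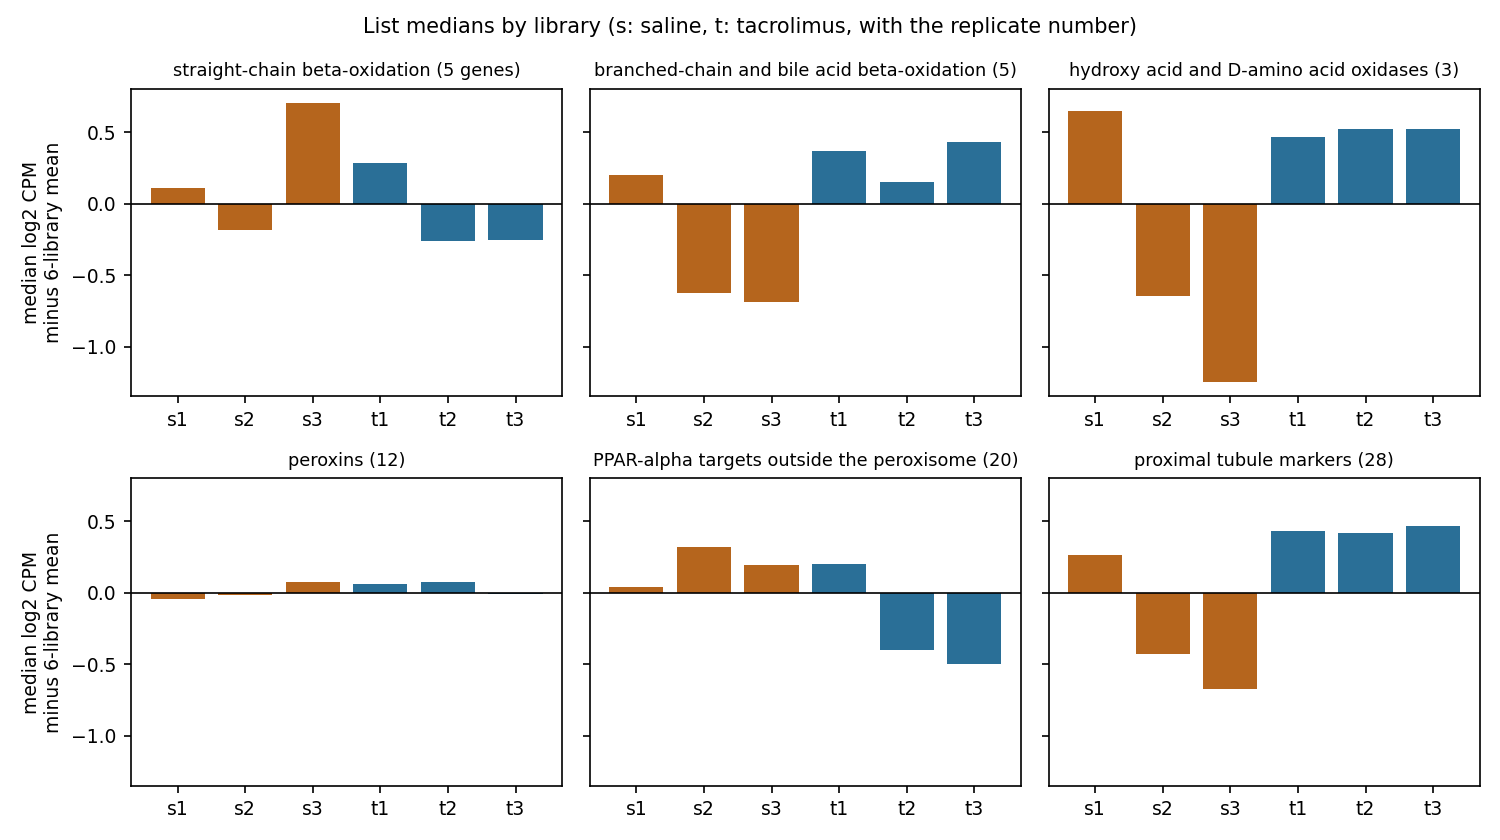
Bars give the median over each list of log2 CPM minus the 6-library mean, for saline replicates 1 to 3 (s1 to s3) and tacrolimus replicates 1 to 3 (t1 to t3). In saline replicate 1 the proximal tubule list stands at 0.26 beside 0.42 to 0.47 with tacrolimus, and in saline replicates 2 and 3 at -0.43 and -0.67, while for the PPAR-alpha targets tacrolimus replicate 1 stands at 0.20 and replicates 2 and 3 at -0.40 and -0.50.

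Marker lists of cell types were read beside the members. Of 28 proximal tubule markers, 25 had estimates above 0 (median 0.61), and their summed level was 21580 to 32040 CPM with saline and 33730 to 37410 CPM with tacrolimus. Summed as FPKM the groups overlapped, at 14380, 10280 and 17180 with saline and 19330, 15890 and 16320 with tacrolimus. Of 10 markers of the last segment of the proximal tubule, 10 had estimates above 0 (median 1.12), with sums of 1408 to 2677 and 2970 to 3709 CPM. Slc7a13, a transporter of that segment, had 300, 28.0 and 13.5 CPM with saline and 367, 319 and 261 CPM with tacrolimus, and Slc5a2, the glucose transporter of the early segment, 85.7, 59.2 and 63.2 against 112, 164 and 172 CPM. In both CPM sums and both genes, saline replicate 1 was the highest saline library.

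Of 29 tubular injury markers, 28 had estimates below 0 (median -1.57; median deviation -0.068, 0.98 and 1.48 in saline replicates 1, 2 and 3), with sums of 8680 to 33150 CPM with saline and 3128 to 8577 CPM with tacrolimus. Lcn2, an injury marker also found in neutrophils, had 77.1, 517 and 2600 CPM with saline and 47.4, 31.4 and 72.2 CPM with tacrolimus. Of 9 neutrophil markers tested, Lcn2 among them, 8 had estimates below 0 (median -2.32). The groups did not overlap in 7 of the 9 (77.8%), against 21.8% of all genes tested. Neutrophil markers summed to 88.9 to 2641 CPM with saline and 38.3 to 77.2 CPM with tacrolimus. Lcn2 made up most of that sum in every library, while Ly6g had no count in any.

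Other marker lists also had most estimates above 0. Among these were 8 of 8 markers of the thick ascending limb (median 0.79), 8 of 8 of fibroblasts and pericytes (median 0.78), 9 of 10 of endothelium (median 0.57) and 7 of 11 of macrophages and monocytes (median 0.78). Distal tubule and collecting duct had 11 of 13 (median 0.27) and podocytes 4 of 6 (median 0.19). Macrophage and monocyte estimates reached down to -2.46, and their summed level was 72.1 ± 16.7 FPKM with saline and 62.3 ± 9.39 with tacrolimus (SD, n = 3 each). The part of cell type shares and of injury in the values of Hao2, Dao, Pex11a and the other members was not tested.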

How the data were processed

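Groups and replicate numbers came from the sample titles, and doses and times from the design text. The deposited table gives raw read counts and FPKM per gene and library, per the file headers, with the build GRCm39 per the submitters' processing notes. How the authors aligned and counted reads, and whether strand was used, is not given in the sources used here. Of the 32 members, 18 overlap another gene model and 8 a protein-coding one, Scp2 and Acaa1a among them, so their counts depend on how shared reads were assigned. Per the labels, every library belongs to the same batch. There were 0 columns of other samples, and 1 emptied row is not analysed here.

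Counts were tested with edgeR 4.0.16 in R 4.3.3: filterByExpr (minimum count 10, minimum total 15), TMM factors of 0.942 to 1.03, robust glmQLFit and glmQLFTest, two-sided, with Benjamini-Hochberg adjustment over all 17557 genes and a threshold of 0.05. The SE was the fold change over the root of F. Alternatives were median-of-ratios (RLE) factors, DESeq2 1.42.0, no filter, no robust moderation, limma 3.58.1 on log2 of the deposited FPKM plus 1 or 0.1, a replicate block, and leaving out each library. Deviations used log2(CPM + 0.05). With at least 38443534 counts per library, spread between libraries rather than counting sets the error of all but the lowest genes, and the chi-square per degree of freedom between libraries of a group was 51.6 or more, so no library was a duplicate.

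The members, gene lists and tests were chosen with earlier results of these data known. All 32 members are named. By rule, values for every library are given at least for the 4 peroxins and 8 other members with the smallest p, the most abundant of each role and those against their class's direction. Of the other peroxisomal and PPAR-alpha lists the 3 genes with the smallest p are named, with Cat and Ppara, and of the marker lists Havcr1, Lcn2, Lrp2, Slc5a2 and Slc7a13. Another gene that the rule names is not reported here.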

Additional observations from a re-analysis of the deposited data

How the results depend on the processing

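Over all genes, edgeR called 2 with all 6 libraries; DESeq2 called 344 (111 higher, 233 lower), limma on either FPKM scale 1, and the fit with the replicate block 1. Leaving out 1 library gave 0 to 2534 calls, with 2534 without saline replicate 1 and at most 1 without any other. Peroxins called were 0 with all libraries, 1 in DESeq2 and 0 to 1 on leaving out a library. Enzymes and membrane proteins called were 0 with all libraries and in DESeq2, and 0 to 7 on leaving out a library. The 1 and the 7 came without saline replicate 1; the cause was not tested. The median log2 fold change of the peroxins ranged from -0.0085 (without tacrolimus replicate 1) to 0.12 (without tacrolimus replicate 3), and that of the enzymes and membrane proteins from 0.049 (without saline replicate 3) to 0.38 (without saline replicate 1).

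Of 416 alternative values of the 32 members, 402 kept their direction, but many of these are refits of the same 6 libraries. The sign turned in 7 members, on leaving out a library: Pex3 (-0.16 to 0.45), Pex6 (-0.031 to 0.30), Pex13 (-0.11 to 0.0068), Pex19 (-0.17 to 0.15), Acaa1a (-0.23 to 0.0080), Phyh (-0.071 to 0.28) and Hacl1 (-0.17 to 0.43). RLE factors, no filter and no robust moderation changed no call among the members. Replicate numbers are shared by the groups, but same-numbered libraries did not deviate together (correlations -0.0229, -0.0095 and -0.0475). No strong pairing by number was seen, though a weak one could be missed with so few libraries. The block gave 0 calls among peroxins and 0 among enzymes. Limits are the 3 libraries per group, the distance of saline replicate 1 from its group, the unstated read assignment and the unstated link of libraries to animals.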
